A study of Glycine max with 108 samples.

Results

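60 soybean genes stood higher in leaves under each of 17 stress treatments than in control leaves. They were chosen from the leaf table of 57147 features, of which 28355 soybean gene identifiers had a leaf mean of at least 1 FPKM (a fragment count scaled to transcript length and library size). Of these, 351 were set aside because a group held both a 0 and a value of at least 10 FPKM, which left 28004. For each gene the mean of log2(FPKM + 1) in control was subtracted from that in each treatment, and the smallest of the 17 differences was its score. The members were the 60 highest scores of 28004. Because leaf values chose them, every leaf difference from control is given as a description, with no test, while the flower libraries played no part in the choice and were tested.

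All plants were of the genotype Magellan and 31 days old, and their seeds had been coated with Bradyrhizobium japonicum, the symbiont that nodulates soybean roots. Control plants received no stress. The single treatments were salinity (15 mM), acidity (pH 4), water deficit (irrigation to 30% of transpirable water, against 100% in the rest), low phosphate (phosphate reduced by 90%) and cadmium (300 µM). The stresses other than cadmium were also combined in the 6 possible pairs, the 4 possible triples and 1 treatment with 4 stresses, and cadmium was added to make 1 treatment with 5. The pH and the phosphate reduction are stated in the labels for the single stresses, and the levels in the combinations are not. Leaves and flowers were collected in each of the 18 conditions, and each library came from tissue pooled from 5 to 7 plants, which the labels call a biological repeat.

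Each of the 36 groups has 3 columns, 108 in all, but 4 columns held the mean of the remaining columns of their group within a tolerance of 0.1% for at least 99% of features. These were control replicate 3 in leaf, and replicate 1 of acidity, of water deficit and of the 4-stress combination in flower. They were left out, which left 53 leaf libraries (2 control, 51 treated) and 51 flower libraries (3 control, 48 treated). Summed FPKM ran from 617269 to 713376 in leaf (control 641066 and 641445) and from 611857 to 680482 in flower (control 645614 to 649564). Absolute depth is unknown. Between 37691 and 40489 features were above 0 in leaf libraries, and between 38673 and 43702 in flower libraries. In these bulk samples a larger share of cells of a type and more RNA per cell cannot be told apart.

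Salt, drought, acid soil, phosphate shortage and cadmium reach a plant by different routes, through osmotic and ionic load, loss of turgor, root damage, nutrient limitation and metal toxicity. In leaves they share downstream responses, among them abscisic acid signalling, production of reactive oxygen species with the enzymes that detoxify them, and slower growth. Genes that respond to many unrelated stresses are often called general stress genes, and studies of combined stress ask which of them also respond when several stresses act together and in reproductive organs. The files give locus identifiers without gene names, and none of the identifiers matched the RefSeq table used here, so the members are given by identifier without a role. For the same reason the tissue labels were not checked against marker genes.

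The members were mostly of low abundance in control leaves. Their control mean had a median of 1.32 FPKM and ran from 0 to 31.9 FPKM, against a median of 6.07 FPKM over the 28004 scored features. The control mean was under 1 FPKM in 23 members, under 5 FPKM in 53 and at least 10 FPKM in 4. Both control libraries were at 0 FPKM for 7 members and 1 of them was at 0 for another 6. Their replicates also scattered more widely, with a median within-group SD of 0.33 on the log2(FPKM + 1) scale against 0.14 over all scored features. On this scale a difference understates the change of a gene near 0.

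Scores ran from 0.29 to 1.80 with a median of 0.37, so the weakest treatment moved a typical member by little. Only 3 members had a score of at least 1, and 13 had one of at least 0.5. The largest of a member's 17 differences ran from 0.84 to 3.97 with a median of 1.85, and it was at least 2 in 25 members. The members just inside the limit, GLYMA_11G121200 and GLYMA_11G111700, scored 0.2883 and 0.2877, and the genes just outside, GLYMA_06G055900 and GLYMA_11G060600, scored 0.2834 and 0.2831. A score above 0 means that control had the lowest of the 18 group means, which held for 1165 of the scored features (4.16%) and, by the choice, for all 60 members. In 16 members each of the 51 treated libraries was above both control libraries, where the share over all scored features was 0.196%. The choice used these same libraries and favoured such members, so this count is a description. Which genes made the list rested on the control libraries. With control replicate 1 left out, 22 of the members remained among the 60 highest scores and 55 kept a score above 0. With control replicate 2 left out, the counts were 23 and 57.

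The gene with the highest score was GLYMA_11G164900. Its control leaves read 1.95 and 0 FPKM, and its treated leaves ran from 1.44 to 22.0 FPKM with a median of 9.72, so that 50 of 51 treated libraries were above both controls. Its group means ran from 5.60 ± 3.07 FPKM (SD, n = 3) under acidity with water deficit to 16.8 ± 5.32 FPKM (SD, n = 3) with all 5 stresses. Replicates scattered widely inside groups, and treatments were not tested against each other.

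The next members by score, GLYMA_03G244900 and GLYMA_13G092400, were read at 0 FPKM in both control leaves. Treated leaves had a median of 4.77 FPKM for GLYMA_03G244900, with 1 library at 0 and the highest at 13.1 FPKM. For GLYMA_13G092400 the median was 3.55 FPKM, 2 libraries were at 0 and the highest was 12.2 FPKM. GLYMA_15G126100 was likewise at 0 in both controls, with a treated median of 1.53 FPKM and 4 treated libraries at 0. These genes were listed at 0 in control and at low levels under stress, and treated and control libraries still overlapped at 0.

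Other leading members were well above detection. GLYMA_09G164000 read 14.5 and 10.7 FPKM in control leaves and from 6.73 to 221.5 FPKM in treated leaves, with a median of 68.5 FPKM. Its group means lay between 27.0 ± 17.8 FPKM (SD, n = 3) under acidity and 33.3 ± 10.3 FPKM (SD, n = 3) under low phosphate for the 5 single stresses, and reached 127 ± 25.8 FPKM (SD, n = 3) under the 4-stress combination. All 12 combinations were above all 5 single stresses in group mean, although single libraries overlapped.

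GLYMA_13G019500 read 3.61 and 4.38 FPKM in control leaves and had a treated median of 16.8 FPKM. Its 3 libraries under salinity with water deficit and low phosphate read 56.0, 55.5 and 59.0 FPKM, above every other leaf group mean, of which the next was 30.9 ± 6.49 FPKM (SD, n = 3) under acidity with low phosphate. GLYMA_18G297700 moved less but without overlap, from 8.68 and 9.93 FPKM in control to between 10.5 and 30.5 FPKM in treated leaves. GLYMA_02G058200 read 0.530 and 0.347 FPKM in control leaves and was highest under salinity with acidity, at 16.1 ± 1.40 FPKM (SD, n = 3), against 1.08 ± 0.565 FPKM (SD, n = 3) under low phosphate. The members therefore shared a direction, not a profile across treatments.

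The remaining members named by score covered the same range. Their treated medians ran from 2.13 FPKM in GLYMA_01G072900 to 14.3 FPKM in GLYMA_16G173200. Between them lay GLYMA_15G248600, GLYMA_02G311400, GLYMA_19G178500, GLYMA_11G001400, GLYMA_10G260700, GLYMA_01G099400, GLYMA_16G050100, GLYMA_07G214800 and GLYMA_04G054400. Of these, GLYMA_01G072900 had all 51 treated libraries above both controls, while GLYMA_02G311400, whose controls differed (2.90 and 0.754 FPKM), had 44 of 51.

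**Figure D1:**
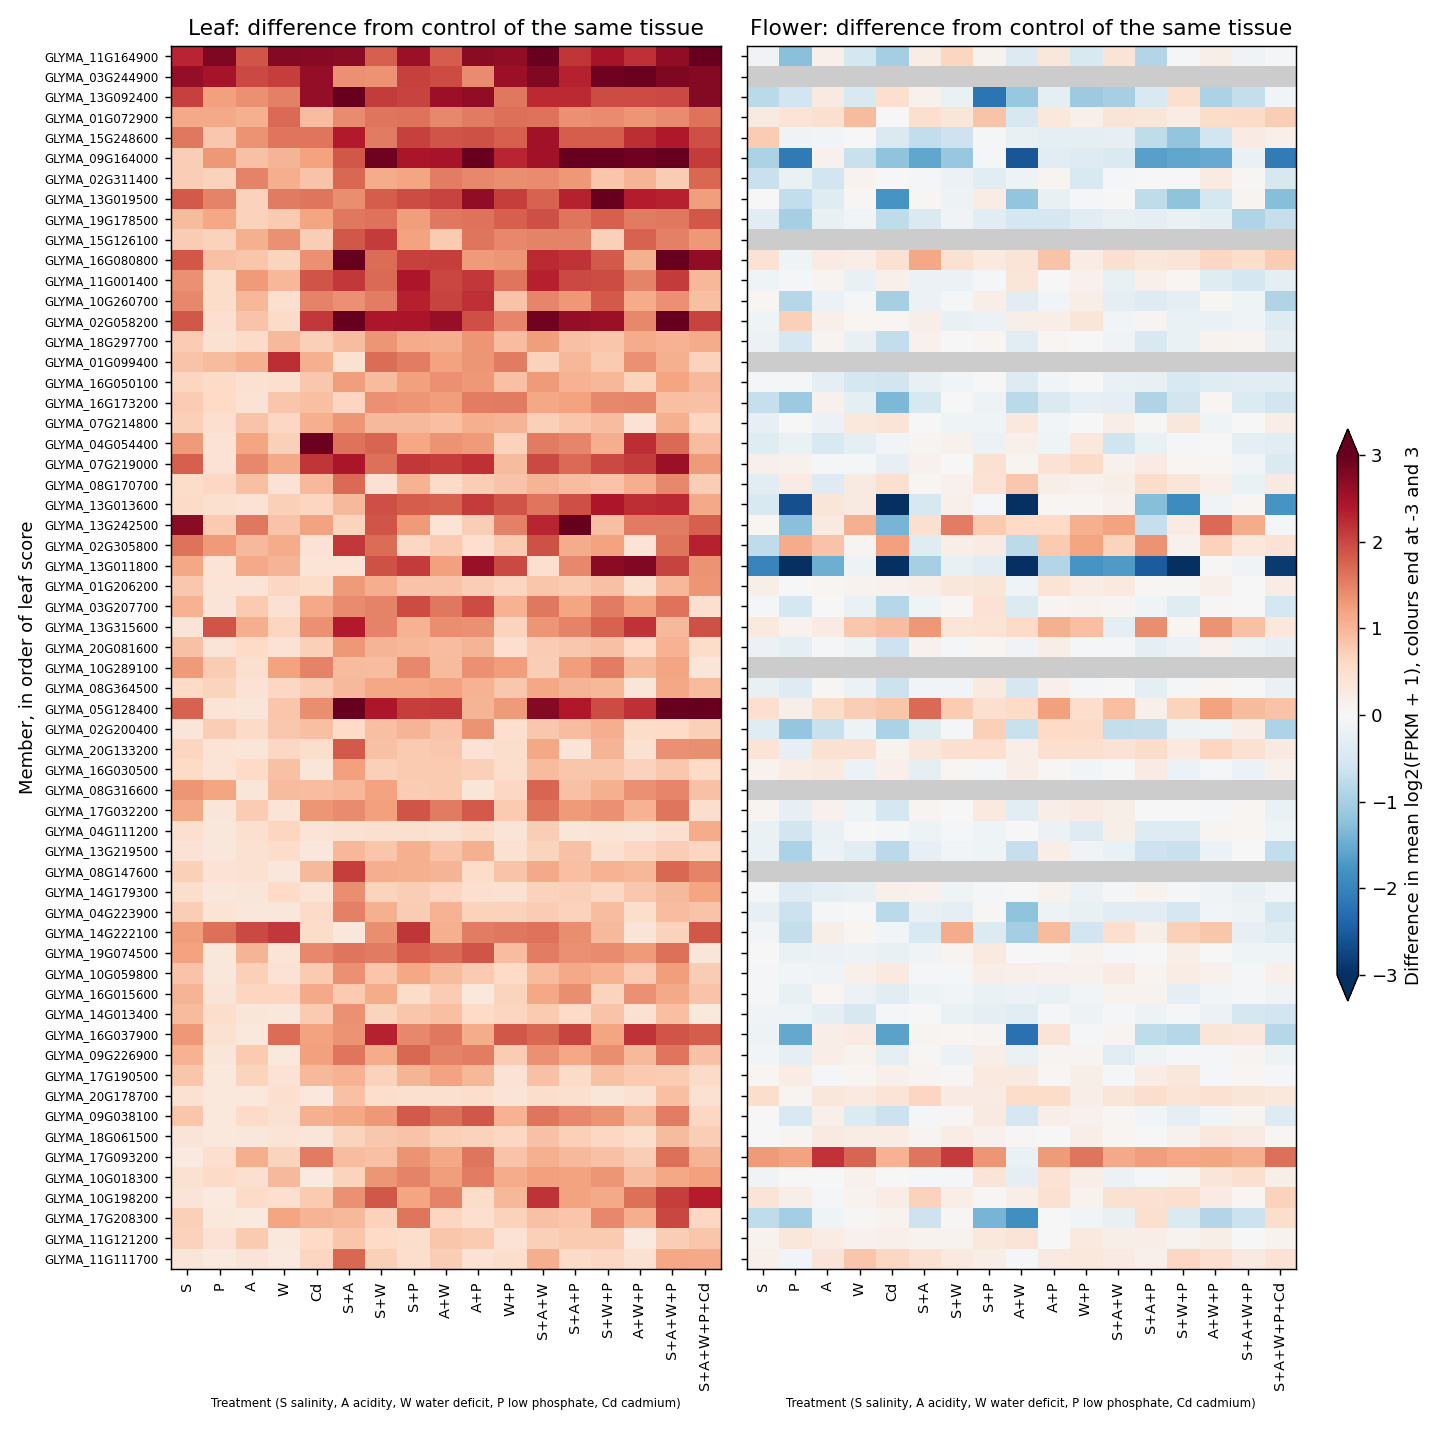
Difference from control in mean log2(FPKM + 1) for the 60 members (rows, by score) in the 17 treatments (columns) in leaf and in flower; S is salinity, A acidity, W water deficit, P low phosphate and Cd cadmium, colours end at ±3, and grey rows are the 6 members not tested in flower. The leaf panel is of a single sign because the members were chosen so. By the median over members, its colour is weaker under the single stresses other than cadmium than under the combinations. The flower panel holds both signs.

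The 17 leaf treatments did not move the members equally. Low phosphate alone had the smallest median difference over the 60 members, at 0.49, and gave 22 members their smallest value. Acidity and water deficit alone followed at 0.69 and 0.67, salinity at 0.85 and cadmium at 0.96. The median over all scored features lay between -0.12 and -0.04 in these 5 comparisons. Salinity with acidity had a median of 1.37 and was the treatment of the largest difference in 16 members. A difference of at least 1 was reached there by 41 of 60 members and by 15.6% of all scored features. That share of all features was the largest of the 17 treatments, and low phosphate alone had the smallest, at 0.164%. How often all scored features had their largest or smallest difference in a treatment is not given here. The counts of 16 and 22 members are therefore descriptions. The 4-stress combination had a median of 1.43, with 45 of 60 members at a difference of at least 1 (9.50% of all features), and the 5-stress combination had 1.06, with 32 of 60 (8.82%). The median over all features was 0.06, -0.03 and 0.10 in these 3 comparisons. The median did not increase with each stress added. All 17 comparisons use the same 2 control libraries, so a control value that is too low or too high enters each of them.

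Set against each member's own mean over the 4 single stresses without cadmium, cadmium alone was higher in 44 of 60 members, the pairs in 53, the triples in 56, the 4-stress combination in 55 and the 5-stress combination in 48. The members' median of these means was 0.67 for the single stresses, 0.96 for cadmium, 1.24 for the pairs and 1.17 for the triples. Over all scored features the corresponding medians were -0.07, -0.12, -0.05 and -0.12. The share of all scored features above their own mean over the single stresses is not given here. The comparison among stressed groups does not use the control libraries. Within the 15 treatments without cadmium, 8 contain a given stress and 7 do not. Groups with salinity were above those without it in 56 of 60 members, with a median difference of 0.30, where 54.8% of all scored features were above. With acidity present, 48 of 60 members were higher by a median of 0.18 (52.7% of all features). Water deficit gave 40 of 60 and a median of 0.06 (34.8%), and low phosphate gave 31 of 60 and a median of 0.01 (35.7%). Most members were thus higher in leaf where salinity, acidity or water deficit was present, and low phosphate split them into similar numbers either way. For all 4 stresses the share of members that were higher stood above that of all scored features. These values share leaf libraries with the choice of members and are descriptions.

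**Figure D2:**
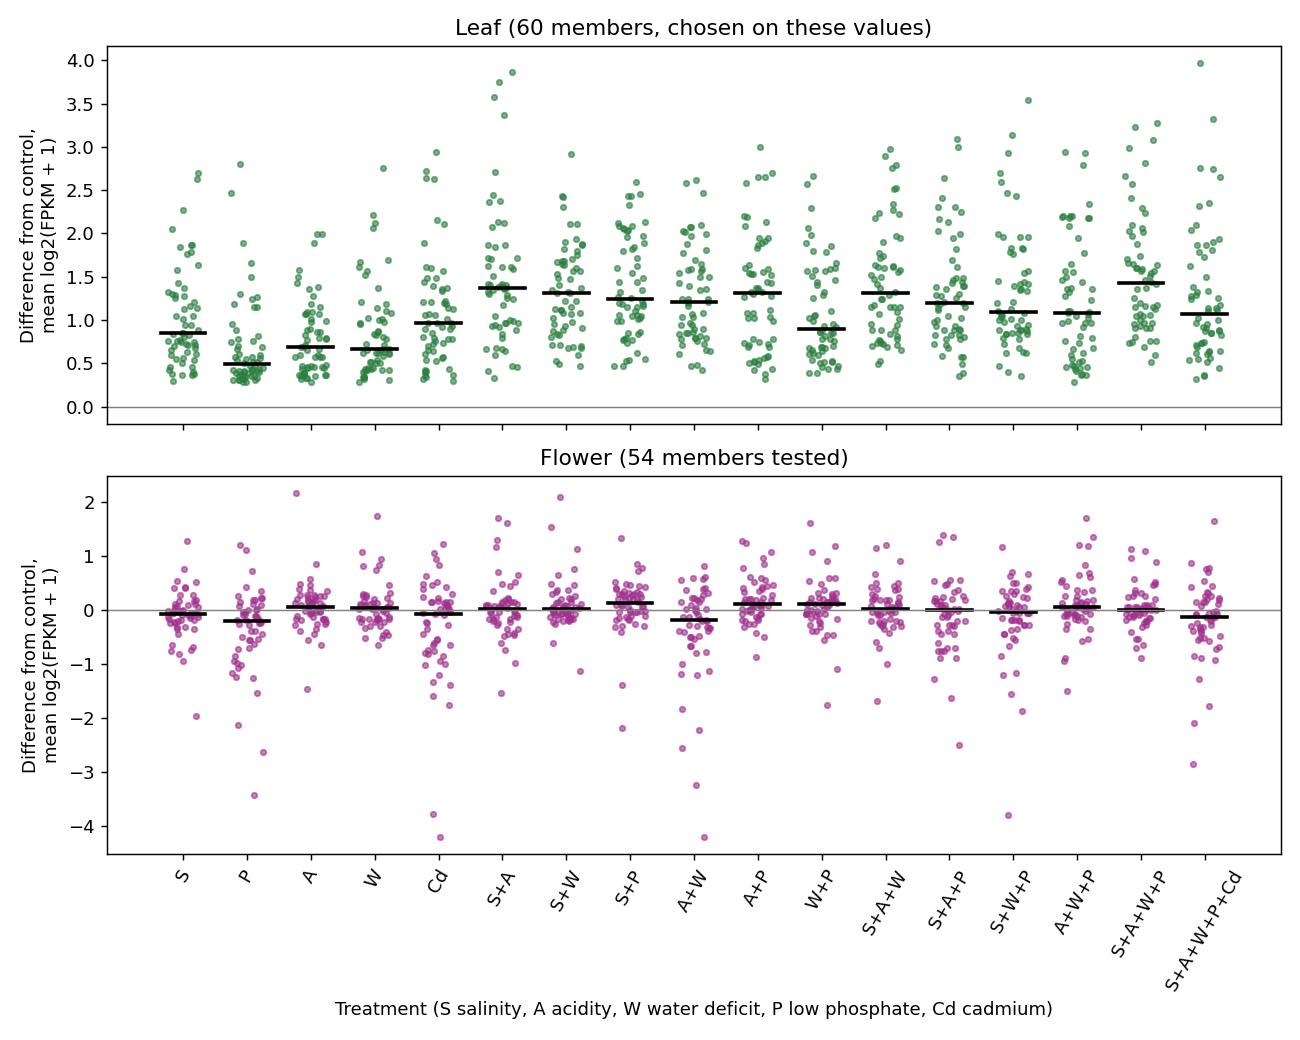
Difference from control in mean log2(FPKM + 1), with 1 point per member and a bar at the median, for 60 members in leaf (upper panel) and 54 in flower (lower panel) under each treatment, abbreviated as S salinity, A acidity, W water deficit, P low phosphate and Cd cadmium. Leaf medians run from 0.49 (low phosphate) to 1.43 (the 4-stress combination), and flower medians lie between -0.21 (low phosphate) and 0.12 (salinity with low phosphate).

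In flower the members did not share a direction. Of the 60, 54 had a flower mean of at least 1 FPKM and were tested with limma among 33792 features. The other 6, among them GLYMA_03G244900, GLYMA_15G126100 and GLYMA_01G099400, had flower means between 0.237 and 0.944 FPKM and were not tested. In the average of the 17 treatments against control, 3 of 54 members were called higher at an adjusted p under 0.05 (5.56%), where 7.07% of all tested features were called higher. None was called lower, where 3.86% of all features were, and 2 members were lower at an unadjusted p under 0.05 by limma. With each library scaled to a common median ratio, 54% of all calls in the average were higher in place of 64.7%, and the members' counts were again 3 and 0. The count of 3 fell to 1 without flower control replicate 3 and to 1 without replicate 3 of every group.

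The average difference was positive in 23 members and negative in 31. Its median was -0.07, against 0.02 over all features, with a range from -1.80 to 1.33 and a median standard error of 0.18. Flower control had the lowest of the 18 group means in 3 of 54 members, where this held for 7.49% of all features, and the highest in 1 member, GLYMA_19G178500, where the share was 4.51%. The share of members called or ordered this way was near or below that of all features. Flower replicates of the members scattered more widely, with a median within-group SD of 0.31 against 0.16 over all tested features. A difference of the same size was thus harder to call in a member, and few calls do not show that members did not respond. Most members were more abundant in control flowers than in control leaves, in 54 of 60 members against 65.7% of all scored features, although the leaf and flower tables were normalized separately. This count is a description, since the choice of members used the leaf control values and favoured low ones. Across the 17 treatments, leaf and flower differences had a Pearson r with a median of 0.16 over the members (from -0.62 to 0.65) and of 0.13 over all features. Each r is a description over 17 treatments that share control libraries within a tissue.

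**Figure D3:**
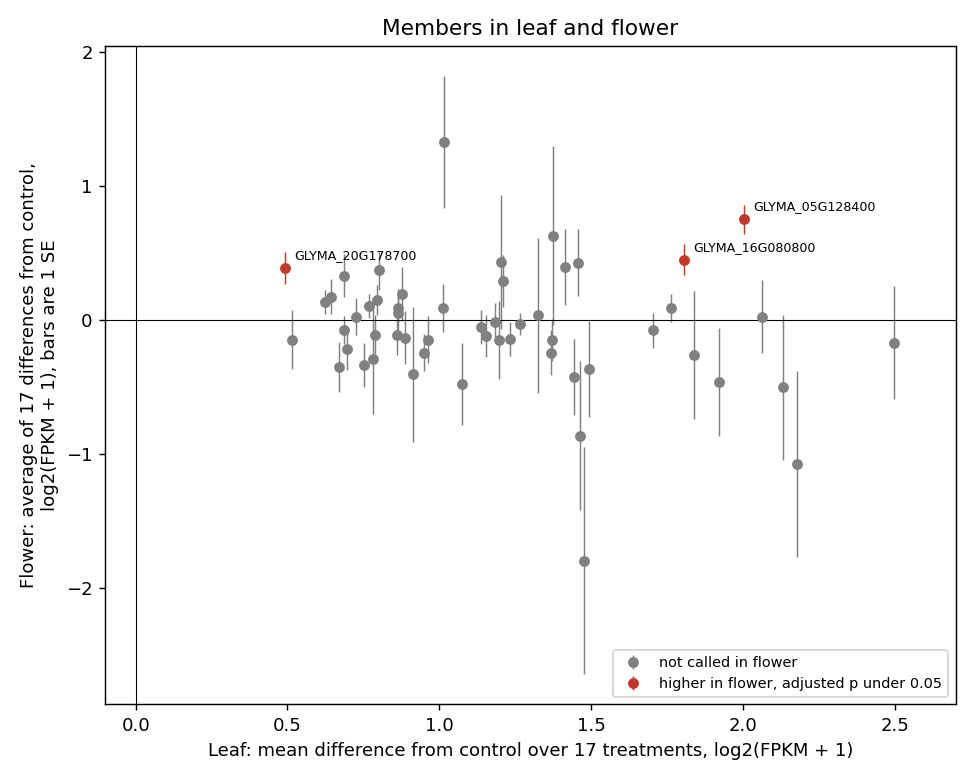
Mean leaf difference from control over 17 treatments (x axis, log2(FPKM + 1) scale) against the average flower difference with 1 standard error (y axis, same scale) for the 54 members tested in flower, with the 3 called members in red. Flower averages lie on both sides of 0 across the range of leaf differences.

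GLYMA_05G128400 stood higher in treated leaves and rose in treated flowers. Its control leaves read 1.23 and 1.05 FPKM, and its treated leaves ran from 1.39 to 32.9 FPKM with a median of 7.52, all 51 above both controls. Its control flowers read 10.0, 11.1 and 13.7 FPKM, and treated flowers ran from 10.4 to 46.1 FPKM with a median of 19.97, with 45 of 48 above all 3 controls. The flower average was higher by 0.75 on the log2(FPKM + 1) scale (SE 0.11, limma adjusted p = 5.46e-06). It was called higher in 14 of 17 treatments in flower, the largest number of any member, and was not called under low phosphate, salinity with low phosphate, or salinity with acidity and low phosphate. It was called in the flower average under all 12 alternatives tried.

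Both tissues gave GLYMA_05G128400 a high level under salinity with acidity. The leaves read 32.0, 31.8 and 26.9 FPKM there, against 6.26 ± 0.887 FPKM (SD, n = 3) under salinity alone and 1.77 ± 0.358 FPKM (SD, n = 3) under acidity alone. The flowers read 33.9, 40.5 and 46.1 FPKM, against 16.97 ± 2.68 FPKM (SD, n = 3) under salinity and 17.7 and 17.2 FPKM under acidity. The flower difference from control was 1.70 (SE 0.15, limma adjusted p = 8.24e-11). In leaf the level with all 5 stresses was equally high, at 32.7, 32.9 and 31.6 FPKM, and in flower it was 21.9 ± 3.25 FPKM (SD, n = 3). No test was run of the pair against its single stresses.

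GLYMA_16G080800 had its highest group mean under salinity with acidity in both tissues. Control leaves read 0.814 and 1.26 FPKM and treated leaves from 1.76 to 29.8 FPKM with a median of 6.01, with no overlap. Control flowers read 19.8, 13.8 and 10.7 FPKM and treated flowers from 11.2 to 34.3 FPKM with a median of 20.1, so that 27 of 48 were above all controls. The flower average was higher by 0.45 (SE 0.12, limma adjusted p = 0.00936). Under salinity with acidity the leaves read 27.8, 21.7 and 29.8 FPKM and the flowers 33.0, 32.5 and 34.3 FPKM, the highest group in each tissue, with a flower difference of 1.16 (SE 0.16, limma adjusted p = 2.54e-06). It was also called higher under acidity with low phosphate, acidity with water deficit and low phosphate, cadmium, and the 5-stress combination. Its r between leaf and flower differences, 0.65 over 17 treatments, was the highest of the members. The call in the average was lost without flower control replicate 2 or 3 (limma adjusted p = 0.0749 or 0.31, differences 0.43 and 0.26) and without replicate 2 or 3 of every group (limma adjusted p = 0.134 or 0.382, differences 0.45 and 0.22).

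GLYMA_20G178700 was the lowest of the 3 in abundance. Control leaves read 0.3999 and 0.534 FPKM, and treated leaves ran from 0.395 to 2.23 FPKM with a median of 1.04. Control flowers read 5.18, 10.9 and 5.50 FPKM, the second standing apart, and treated flowers ran from 6.499 to 12.8 FPKM with a median of 8.92. Only 7 of 48 treated flower libraries were above all 3 controls. The flower average was higher by 0.39 (SE 0.12, limma adjusted p = 0.0292), and 5 treatments were called higher on their own. Without flower control replicate 1 or 3 the difference was 0.22 or 0.25 (limma adjusted p = 0.432 or 0.354), and without replicate 1 or 3 of every group it was 0.23 or 0.22 (limma adjusted p = 0.332 or 0.549).

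**Figure D4:**
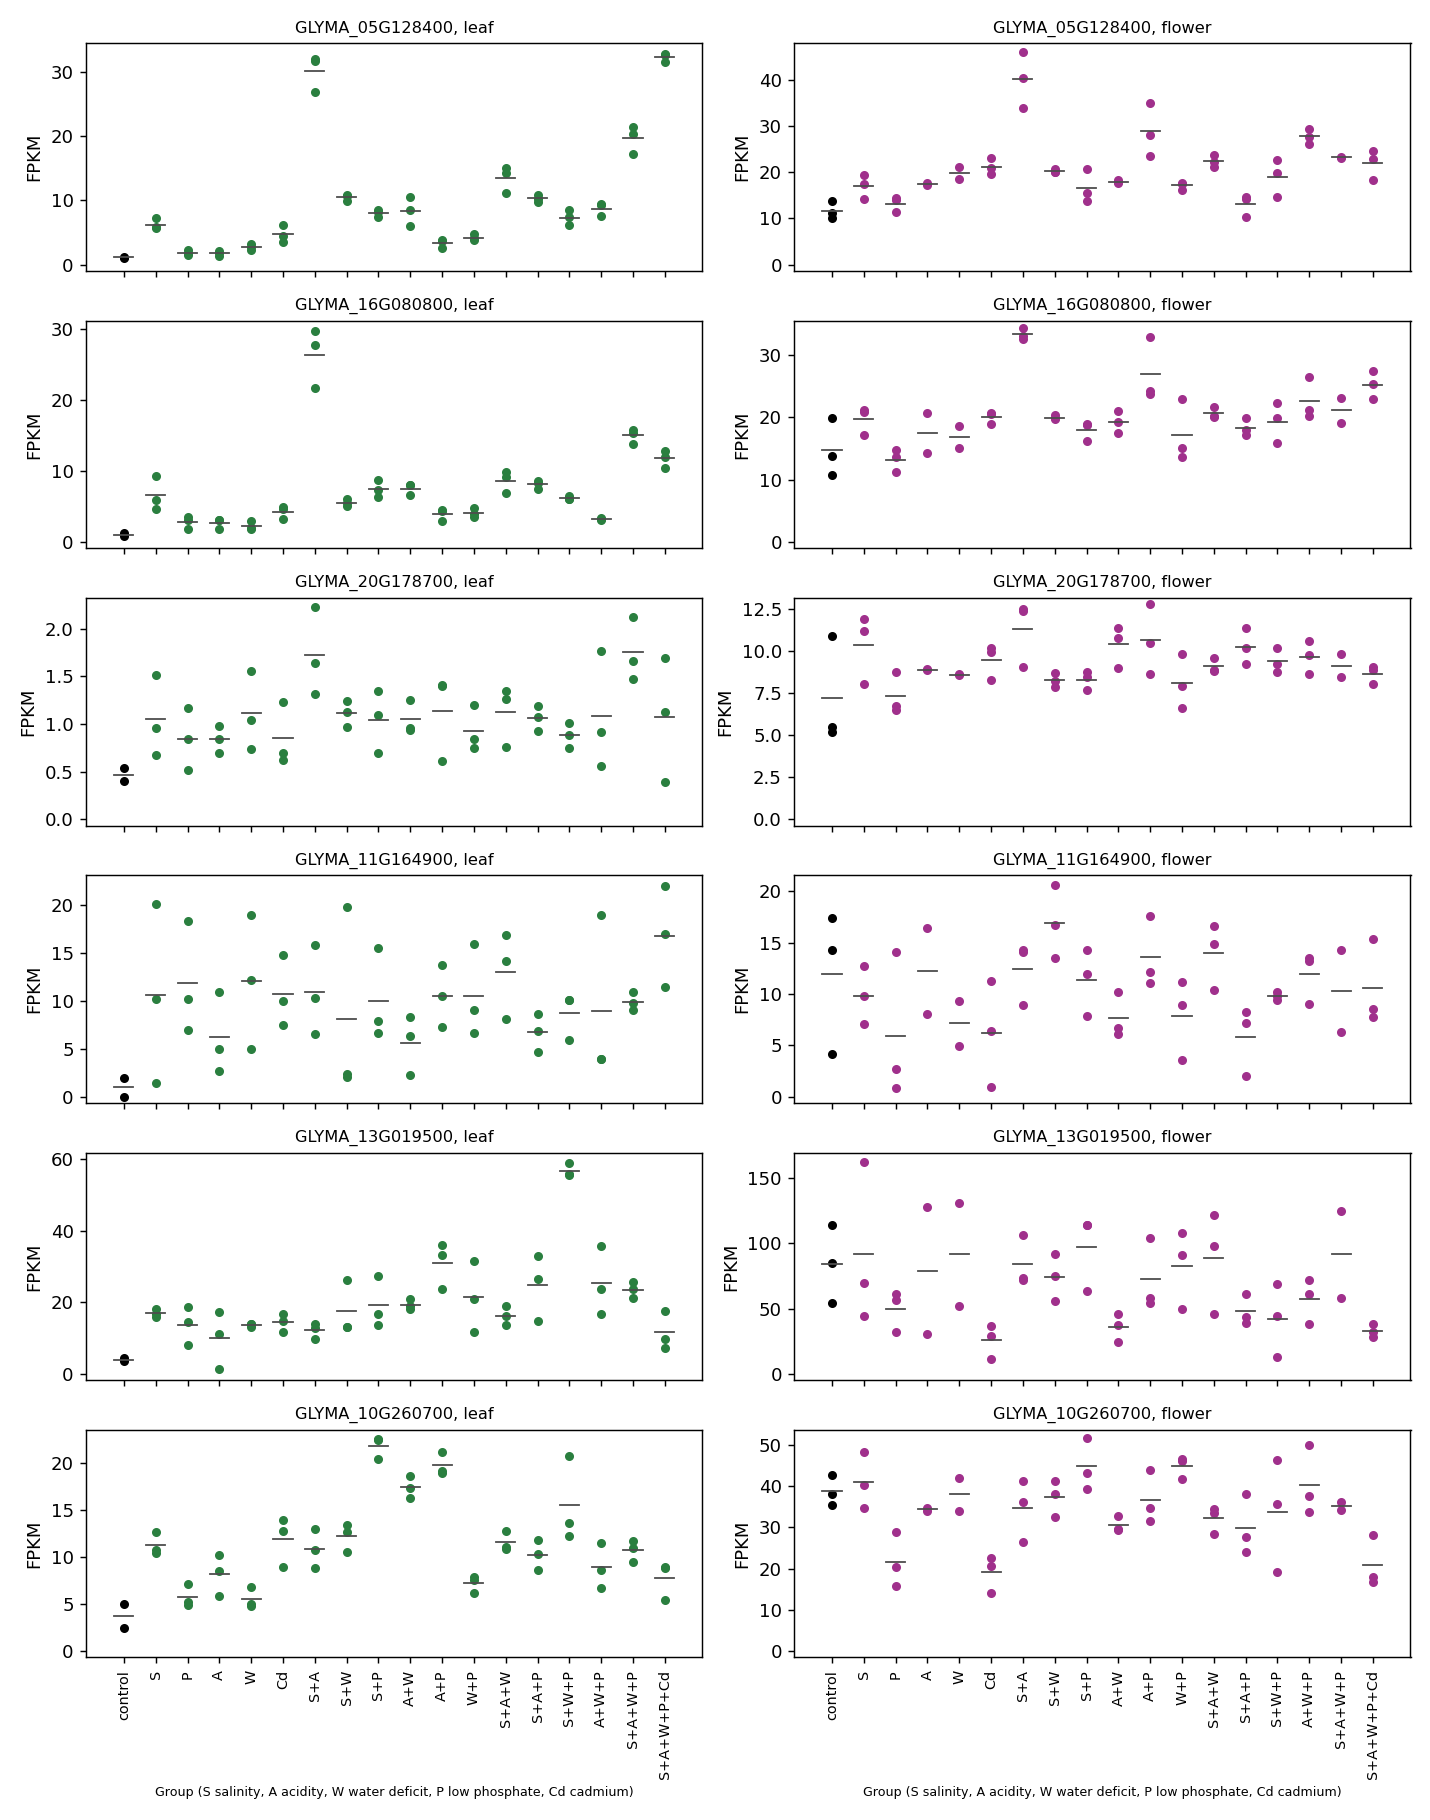
FPKM in every leaf and flower library, by treatment, for the 3 members called higher in the flower average (GLYMA_05G128400, GLYMA_16G080800 and GLYMA_20G178700), the highest score (GLYMA_11G164900) and members called lower in cadmium flowers (GLYMA_13G019500 and GLYMA_10G260700), with control in black and a bar at each group mean. GLYMA_05G128400 is highest in flower under salinity with acidity and in leaf is high both there and with all 5 stresses, and GLYMA_10G260700 is above control in leaf under cadmium and below it in flower.

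No tested member with a leaf score of at least 0.5 other than GLYMA_16G080800 was called in the flower average. GLYMA_11G164900 read 17.4, 14.3 and 4.13 FPKM in control flowers and a median of 10.0 FPKM in treated flowers, with an average difference of -0.17 (SE 0.42, limma adjusted p = 0.859). GLYMA_13G092400, at 0 in control leaves, read 8.68, 12.5 and 4.86 FPKM in control flowers, and its average difference was -0.50 (SE 0.54, limma adjusted p = 0.629). GLYMA_09G164000 read 46.5, 75.0 and 54.7 FPKM in control flowers and a median of 30.9 FPKM in treated ones, 35 of 48 of them below all controls. In 1 treated flower library it read 0 FPKM, a value that entered the fit as listed. Its average difference of -1.08 had an SE of 0.70 and was not called (limma adjusted p = 0.372). GLYMA_19G178500 was below the control mean in all 17 treatments, with 24 of 48 libraries below all controls and a difference of -0.42 (SE 0.28, limma adjusted p = 0.394). GLYMA_01G072900, with 16 of 17 treatments above the control mean, had a positive difference of 0.39 (SE 0.28, limma adjusted p = 0.433). None of these 5 differences passed the test.

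Over the 17 flower comparisons, which share the 3 control libraries, 33 of 918 member and treatment pairs were called higher and 28 lower. 9 members were called higher in at least 1 treatment, 16 lower in at least 1, 2 of these in both directions, and 31 in none. Without flower control replicate 3, the counts fell to 20 and 13. Leaving out replicate 2 of every group gave 15 and 13, and leaving out replicate 3 gave 11 and 10. The most lower calls of any member was 3. The counts of pairs and of members in this paragraph were not made over all features, so they are descriptions. In a single comparison, the share of all features called higher ran from 0.775% (salinity with low phosphate) to 18.8% (cadmium). The share called lower ran from 1.10% to 11.4% in the same comparisons.

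Cadmium in flower gave the largest number of members called lower. 15 of 54 were called lower (27.8%), where 11.4% of all features were, and 4 were called higher (7.41%), where 18.8% were. With median ratio scaling, 48.8% of all calls under cadmium were higher in place of 62.4%. The members' counts were then 15 lower (27.8%, against 15.1% of all features) and 2 higher (3.7%, against 14.4%). Without flower control replicate 3, 8 members were called lower (14.8%, against 8.40% of all features) and 1 higher (1.85%, against 15.1%). Leaving out replicate 2 of every group left 8 lower (14.8%, against 5.85%), and leaving out replicate 3 left 4 (7.41%, against 4.31%). The members' share of lower calls stood above that of all features in each of these fits, by amounts that varied with the scaling and the libraries used.

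Among the members called lower under cadmium, GLYMA_10G260700 read 22.7, 20.6 and 14.2 FPKM in flower, against 35.4, 38.2 and 42.7 FPKM in control, a difference of -1.002 (SE 0.23, limma adjusted p = 0.00108). Its cadmium leaves read 13.9, 12.8 and 8.91 FPKM against 2.44 and 4.97 FPKM in control. GLYMA_10G260700 also fell in flower under low phosphate (20.4, 15.7 and 28.8 FPKM, difference -0.85, limma adjusted p = 0.0331). GLYMA_13G019500 read 28.8, 37.0 and 11.03 FPKM under cadmium in flower, against 53.9, 84.7 and 114 FPKM in control, a difference of -1.77 (SE 0.55, limma adjusted p = 0.014). GLYMA_16G173200, GLYMA_18G297700 and GLYMA_16G050100 fell by 1.34, 0.74 and 0.55 (limma adjusted p = 0.0149, 0.0185 and 0.0277). The members named so far under cadmium had all their flower libraries below all controls. They were named because they were called lower, and the share of all features separated in this way is not given here.

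Chosen after their values were seen, GLYMA_13G011800 and GLYMA_13G013600 had the largest falls under cadmium, at -4.21 and -3.79. Both were read at values above 0 and under 0.001 FPKM in some libraries, GLYMA_13G011800 in 12 and GLYMA_13G013600 in 4 of 51 flower libraries. These flower readings entered the fit as listed. In leaf, GLYMA_13G011800 was so read in 8 of 53 libraries, and its controls read 1.29e-06 and 0.0028 FPKM. It was thus not counted among the members at 0 in control leaves. The rule that set genes aside also counted only exact values of 0. The 4 members higher under cadmium were GLYMA_05G128400 (0.82), GLYMA_16G080800 (0.45), GLYMA_20G178700 (0.42) and, chosen after its values were seen, GLYMA_11G111700 (0.62).

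The other single stresses called between 0 and 4 members in a direction in flower. Under salinity 1 of 54 was called higher, where 2.40% of all features were, and 0 lower, where 2.12% were; 0 members were lower at an unadjusted p under 0.05 by limma. Low phosphate called 0 higher (2.24% of all features, 0 members at an unadjusted p under 0.05 by limma) and 4 lower (7.41% of members, 1.11% of all features). 16 of 54 members were lower under low phosphate at an unadjusted p under 0.05 by limma. The share of all features lower at that level is not given here, so this number is a description. The median difference of the members was -0.21 against 0.04 over all features. The 4 called lower were GLYMA_10G260700 and, named after their values were seen, GLYMA_13G013600, GLYMA_13G242500 and GLYMA_13G219500. With median ratio scaling, 46.2% of all low phosphate calls were higher in place of 67.0%. No count of members called under low phosphate is given for that scaling or with libraries left out. Acidity called 1 higher (4.52%) and 0 lower (2.16%), with 0 members lower at an unadjusted p under 0.05 by limma. Water deficit called 2 higher (4.95%) and 0 lower (3.02%), with 1 lower at an unadjusted p under 0.05 by limma.

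Among the pairs, acidity with water deficit called the most members. 3 were called higher, where 13.0% of all features were, and 4 lower, where 8.03% were. Replicate 1 of this group had 38673 features above 0, the fewest of any flower library, against 42494 and 41268 in replicates 2 and 3. No count for this pair is given without that library. Median ratio scaling put 47.8% of all calls under acidity with water deficit on the higher side in place of 61.8%. Salinity with acidity called 3 higher (6.68%) and 0 lower (3.60%, 0 members lower at an unadjusted p under 0.05 by limma), and 54.4% of all its calls were higher in place of 65.0% with that scaling. Salinity with water deficit called 2 higher (2.91%) and 0 lower (1.74%, 0 at an unadjusted p under 0.05 by limma). Salinity with low phosphate called 0 higher (0.775%, 9 members at an unadjusted p under 0.05 by limma) and 0 lower (1.10%, 1 at an unadjusted p under 0.05). The 0.775% and 1.10% are at the adjusted threshold, and no share of all features at an unadjusted p is given here. In each flower comparison, counts of members at an unadjusted p are therefore descriptions. Acidity with low phosphate called 3 higher (3.93%) and 0 lower (2.20%, 0 at an unadjusted p under 0.05 by limma). Water deficit with low phosphate called 2 higher (2.72%) and 0 lower (2.66%, 0 at an unadjusted p under 0.05 by limma). In each pair the members called were at most 4 in either direction, and all 3 members higher under salinity with acidity were those called in the average.

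The triples gave a similar picture. Salinity with acidity and water deficit called 2 higher (4.06%) and 0 lower (3.81%, 1 at an unadjusted p under 0.05 by limma). Salinity with acidity and low phosphate called 1 higher (5.99%) and 0 lower (3.55%, 4 at an unadjusted p under 0.05 by limma), with 52.5% of all calls higher in place of 62.8% under median ratio scaling. Salinity with water deficit and low phosphate called 2 higher (6.90%) and 1 lower (4.35%), with 44.9% in place of 61.3%. Acidity with water deficit and low phosphate called 4 higher (5.79%) and 0 lower (4.31%, 1 at an unadjusted p under 0.05 by limma). Few members passed the test in any triple.

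The 4-stress combination called 1 higher (2.27%) and 0 lower (1.21%, 3 members at an unadjusted p under 0.05 by limma). With all 5 stresses 2 were higher (11.4%) and 4 lower (6.22%), and median ratio scaling put 50.4% of all its calls on the higher side in place of 64.7%. The fall of GLYMA_10G260700 under all 5 stresses was 0.89 (SE 0.23, limma adjusted p = 0.00563), with flowers at 28.2, 16.7 and 17.9 FPKM.

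Within the 15 treatments without cadmium, groups with salinity were above those without it in flower in 35 of 54 members, where 49.4% of all features were. Acidity gave 28 of 54 (52.6% of all features), water deficit 23 (49.3%) and low phosphate 27 (49.9%). The leaf count for salinity was 56 of 60, and the difference between the tissues was not tested.

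The members lay on 18 of the 20 chromosome numbers that their locus identifiers carry. The numbers 13 and 16 held the most, with 7 and 6 members (11.7% and 10.0%, against 7.36% and 3.70% of all scored features), and 6 and 12 held none. This reads the identifiers alone, without coordinates.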

How the data were processed

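Leaf and flower RNA-seq libraries were analysed from the 2 FPKM tables the authors deposited. Reads were aligned with HISAT2 2.2.1, per the submitters' processing notes, while the counting tool, genome build and annotation are not given in the sources used here. FPKM are normalized for length and library size, so no count test was used, depth is unknown, and the 2 tables were normalized separately. The members and comparisons were chosen with earlier results of these data known. No column of per-sample values was left unmapped, and the 4 averaged columns were left out. The p-values measure the spread between pools of plants.

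Flower values were tested on log2(FPKM + 1) with limma 3.58.1 in R 4.3.3. All 51 libraries and 18 groups entered 1 fit, with trend and robust moderation, for 33792 features with a flower mean of at least 1 FPKM. Each treatment, and the equal-weight average of the 17, was compared with control, and p-values were adjusted by Benjamini-Hochberg within a comparison at a threshold of 0.05. The test was tested on simulated data. Tables were joined with pandas 2.3.3 and numpy 2.4.6 under Python 3.11.15, and plots were drawn with matplotlib 3.10.9. Members named are the 20 highest scores, those called in the flower average and those called the same way in at least 12 treatments; any other is marked in the text. Alternatives were a pseudocount of 0.1, no filter, median ratio scaling, the averaged columns counted, no moderation by trend, a replicate block, fits of treatment and control alone, and leaving out replicates. Replicate numbers did not pair the flower libraries.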

Additional observations from a re-analysis of the deposited data

Results flagged for a closer look

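Named members were called lower in flower in 7 pairs of gene and treatment. In 6 of these, over 5 genes, every leaf library of that treatment was above both leaf controls and every flower library below all 3 flower controls. The leaf direction was fixed by the choice of members, and the pairs were taken from those called lower in flower, so the opposite sides are a description. The share of all features separated in this way is not given here. The difference between the tissues was not tested, and the 2 tables were normalized separately.

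GLYMA_10G260700 was flagged under cadmium, where the flower difference was -1.002 on the log2(FPKM + 1) scale and the leaf difference was 1.48. Leaves averaged 11.9 ± 2.61 FPKM (SD, n = 3) against 3.71 FPKM in control, and flowers 19.2 ± 4.46 FPKM (SD, n = 3) against 38.8 ± 3.67 FPKM (SD, n = 3). The flower call held in 12 of 13 alternatives, and was lost without replicate 3. The same gene was flagged with all 5 stresses, at -0.8938 in flower and 0.91 in leaf, a call that held in 11 of 13 and was lost without replicate 2 or replicate 3.

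GLYMA_13G019500 was flagged under cadmium at -1.769 in flower and 1.62 in leaf, and its call held in 10 of 13 alternatives. GLYMA_16G173200 had -1.337 in flower and 0.89 in leaf under cadmium, with 10 of 13. GLYMA_18G297700 had -0.7408 in flower and 0.70 in leaf under cadmium, with 10 of 13. GLYMA_16G050100 had -0.5548 in flower and 0.80 in leaf under cadmium, with 9 of 13. Each of these 4 calls was lost without replicate 3 of every group, and those of GLYMA_13G019500, GLYMA_16G173200 and GLYMA_18G297700 also without flower control replicate 3. The direction in flower was lower under every one of the 13 alternatives for all 6 pairs.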

How the results depend on the processing

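The count of members called higher in the flower average, 3, was the same under the pseudocount of 0.1, no filter, median ratio scaling, averaged columns counted, and no trend or robust moderation, and ran from 1 to 2 with libraries left out. The count called lower was 0 under all 12 alternatives. GLYMA_05G128400 was called in all 12. Of the 19 named members tested, 17 stayed called or not called throughout, all but GLYMA_05G128400 being not called. GLYMA_16G080800 and GLYMA_20G178700 each lost the call in 4 of 12 alternatives. Thus 220 of 228 values stayed on their side of the threshold, the other 8 losing the call. A change of sign in a member not called was not counted, as in GLYMA_11G164900 (-0.17, and 0.18 without replicate 1). Pairs called higher, 33, ran from 11 to 36 with libraries left out and those called lower, 28, from 10 to 25; the remaining alternatives gave 29 to 46 and 23 to 34. Among all features the average called 2389 higher and 1303 lower, 661 and 276 without replicate 2, and 775 and 373 without replicate 3.

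Members called under cadmium were counted again after the data were seen. The 4 higher became 2 with median ratio scaling and 2 with treatment and control libraries only, and 1 to 3 with libraries left out. The 15 lower were 14 or 15 elsewhere and 4 to 15 with libraries left out. The cause was not tested.

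Of the 60 members, 36 remained among the 60 highest scores with a pseudocount of 0.1, and 50 to 58 under the other settings that used all libraries. Leaving out a leaf control library left 22 or 23, and leaving out replicate 1, 2 or 3 of every stress group left 36, 38 or 41.

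With the replicate number as a block, the counts were 3 higher and 0 lower in the average, and 32 higher and 27 lower among the pairs, and under cadmium 3 higher and 15 lower. Same-numbered libraries of different groups correlated with a median r of 0.00111 over 315 pairs, 20 of them over 0.1, and 12 of 45 libraries correlated best with their own number. Depth is unknown, and members near 0 FPKM are limited by it.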
